A study of Mus musculus with 16 samples.

Results

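The genes described here are collagens and other genes of the extracellular matrix, measured as mRNA in the quadriceps femoris muscle of 16 aged mice. The members were all genes whose symbol on the array reads Col, a number, the letter a and a number, which gave 37 collagen chains, and 20 of 22 further matrix genes listed by name. Fbn1 and Fn1, the genes of fibrillin-1 and fibronectin, were on that list, but no probe used here carried their symbols. The 57 members were drawn from 16593 genes named on the array, and the probe with the highest mean over the 16 arrays stood for each gene. In all, 86 of 25697 probes measured a member, and 18 members had more than 1 probe.

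All animals were male C57BL/6 mice in weight-matched cohorts that entered the diets at an age of 22 months, and muscle was taken at 24 months. The chow of 6 mice held 0.27% (w/w) ursolic acid, a plant triterpene acid, the chow of 5 mice held 0.05% (w/w) tomatidine, a steroidal alkaloid of the tomato plant, and 5 control mice ate the same standard chow without either compound, each group for 2 months. Each mouse was hybridized to 1 Illumina Mouse Ref-8 array, so that the replicates are separate mice, and the study used the arrays to ask how each compound changed mRNA levels in old muscle. The doses were not matched, so that values of the compounds are set side by side. Both comparisons with control use the same 5 control mice.

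Muscle fibres lie in a scaffold of connective tissue. Fibroblasts secrete the fibrillar collagens that carry load, with type VI collagen filaments beside them, and each fibre and capillary is wrapped in a basement membrane of type IV collagen, laminin, nidogen and perlecan. Small leucine-rich proteoglycans such as decorin, biglycan, fibromodulin and osteoglycin sit on collagen fibrils and shape their assembly, lysyl oxidases crosslink the fibrils, and matrix metalloproteinases and their TIMP inhibitors govern turnover. This matrix is known to thicken and stiffen in old muscle.

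Values are log2 signals as deposited, with array medians from 8.02 to 8.03 and the lowest signals of the arrays from 7.87 to 7.9. Probes with a mean log2 signal under 8.5 are called dim. By this limit 25 members were bright and 32 were dim, and a log2 change of a dim probe can be understated by the background in its signal. The signal of one probe is not compared with that of another. The words rose, fell and changed are kept for an unadjusted p of 0.025 or less in limma's moderated test over all probes, the threshold of the study's methods, and adjusted p-values are Benjamini-Hochberg values over all probes. Skeletal muscle fibre markers were present, with 10 of 12 listed genes measured and 1 of them dim, and their summed signal on the log2 scale ran from 17.45 to 17.50 in ursolic acid mice, from 17.44 to 17.54 in tomatidine mice and from 17.37 to 17.55 in control mice.

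Tomatidine mice 3 and 4 stood apart from the other mice in these genes, and not in these genes alone. On the first principal component over all probes, the main axis of difference between arrays, tomatidine mouse 4 lay at 14.6. Tomatidine mouse 3 lay at 7.11, and the other mice lay between -6.34 and 5.84, with control mouse 5 the highest of them. Tomatidine mouse 4 had the highest signal of the 16 mice for 18 of the 25 bright members, and tomatidine mice 3 and 4 were the 2 highest for 14 of them. The median bright member lay 0.68 above the control mean on the log2 scale in tomatidine mouse 4 and 0.36 above it in tomatidine mouse 3, while the other 3 tomatidine mice lay between -0.11 and 0.04. Ursolic acid mouse 5 lay at the other end, with the lowest signal for 13 bright members and a median of -0.20. Values without tomatidine mice 3 and 4 are given below as a description. Leaving them out lowers the tomatidine changes of genes in which they are highest by construction. It can also lower correlations, and it leaves 3 tomatidine mice.

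**Figure D1:**
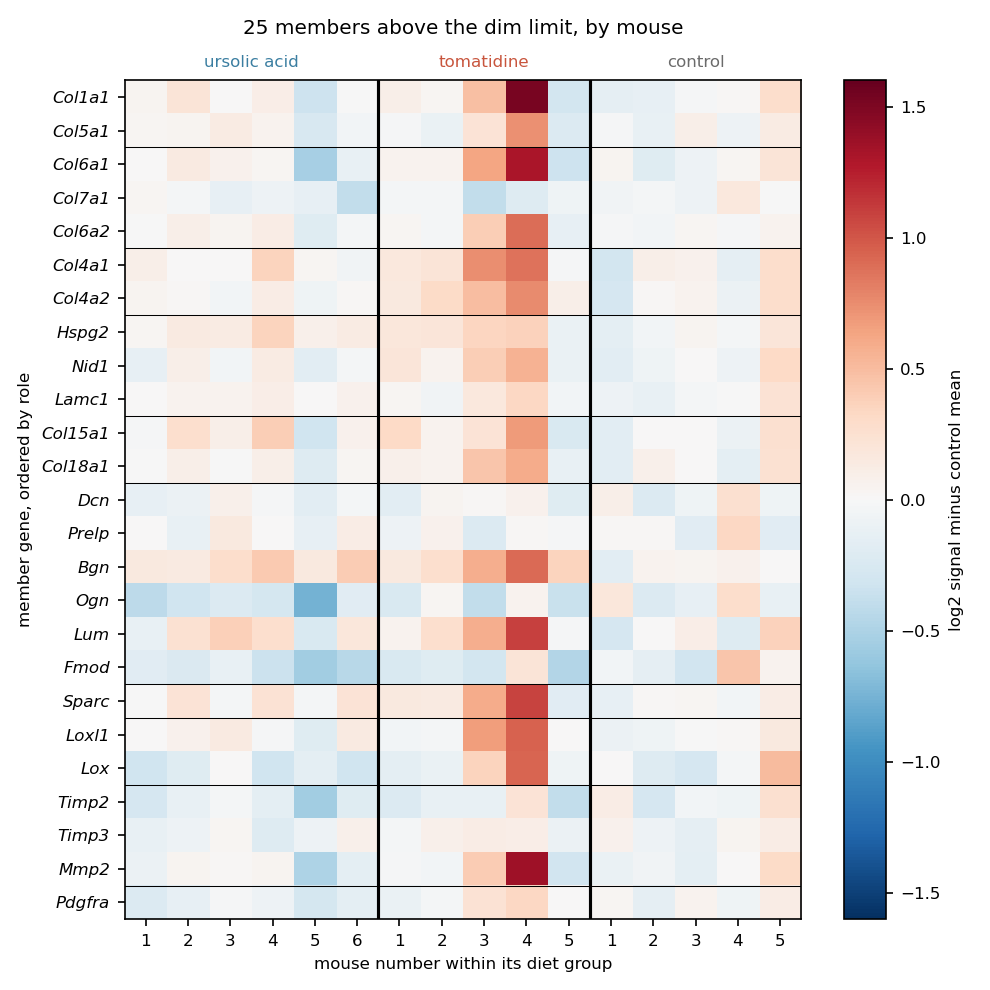
Log2 signal minus the mean of the control mice (colour) for the 25 bright members, 1 row per gene ordered by role and 1 column per mouse, with ursolic acid, tomatidine and control mice from left to right. Tomatidine mouse 4 is the reddest column, with the highest signal for 18 of 25 genes, and ursolic acid mouse 5 holds the lowest signal for 13.

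Markers of other cell types moved with these mice to different degrees. Linear signals of a list were summed before the log2 was taken. Of 12 fibroblast markers, 8 were measured and are not themselves members. Their summed signal on the log2 scale was 11.74 to 12.02 in ursolic acid mice, 11.81 to 12.31 in tomatidine mice and 11.84 to 12.11 in control mice. Tomatidine mouse 4 had 12.31 (rank 1 of 16) and tomatidine mouse 3 had 12.05 (rank 3). The fibroblast markers Pdgfrb, Cd34 and Clec3b were dim. The 10 measured macrophage markers of 12, 6 of them dim, summed to 11.70 to 12.25 in ursolic acid mice, 11.72 to 12.55 in tomatidine mice and 11.78 to 12.31 in control mice, and tomatidine mice 4 and 3 ranked 1 and 2. Endothelial markers (9 of 10 measured) put the same mice at ranks 14 and 11, pericyte and smooth muscle markers (9 of 9) at 15 and 11, and muscle fibre markers at 9 and 7. Schwann cell markers (4 of 8 measured, 2 of them dim) put them at 16 and 8. These ranks use sums, in which the brightest genes weigh most. By the mean log2 signal of a list, muscle fibre markers put these mice at ranks 14 and 6 and endothelial markers at 15 and 11. Of 10 measured muscle fibre markers, 9 of them bright, Ckm and Myh4 fell with ursolic acid by 0.10 and 0.26. That is 20% of those measured, beside 5.3% of all probes and 12.2% of bright probes. The list did not move in 1 direction. With ursolic acid 5 of its changes were positive and 5 negative, with a median of 0.01 and a highest change of 0.69, which did not pass. Of 11 measured adipocyte markers, 7 of them bright, 2 rose with ursolic acid (18.2%) and 4 with tomatidine (36.4%). Beside these stand 5.3% and 5.37% of all probes and 12.2% and 13% of bright probes. Tomatidine mice 4 and 3 ranked 13 and 6 for the sum of the adipocyte markers and 8 and 4 for their mean log2 signal. The 4 measured red blood cell markers of 6 summed to 13.72 to 14.21 in ursolic acid mice, 13.28 to 14.98 in tomatidine mice and 12.76 to 13.93 in control mice, and 0 of them passed. In bulk muscle, fewer cells of a type and less RNA per cell cannot be told apart, and the part of these cell types in the values below was not tested.

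For ursolic acid against control, 1 of 57 members rose and 1 fell, which is 3.51% of the members beside 5.3% of all probes (2.58% higher and 2.72% lower). The gene that fell was Ogn, and the gene that rose was Col17a1, whose probe was dim. For tomatidine against control, 3 members rose and 0 fell, 5.26% of the members beside 5.37% of all probes (2.25% higher and 3.12% lower). The 3 were Bgn, Col4a2 and Col4a1, all bright. For ursolic acid against tomatidine, 0 members were higher and 4 were lower (Col4a2, Pdgfra, Col3a1 and Col27a1), 7.02% of the members beside 2.94% of all probes (1.5% higher and 1.44% lower). Among bright members alone the shares were 4%, 12% and 8%, beside 12.2%, 13% and 4.37% of bright probes. With all mice the shares against control were near or below those of all probes. When tomatidine mice 3 and 4 were left out, 6 members passed with ursolic acid (Bgn and Col17a1 higher, Ogn, Fmod, Pdgfra and Col3a1 lower), 10.5% beside 5.57% of all probes, 3 passed with tomatidine (Bgn higher, the dim Col16a1 and Col11a2 lower), 5.26% beside 3.83%, and 1 passed between the compounds (Col11a2, higher with ursolic acid), 1.75% beside 2.37%. Bright members alone gave 1 rise and 3 falls of 25 with ursolic acid there, beside 405 and 410 of 5949 bright probes. The tomatidine count also moved to 8 without tomatidine mouse 5 and to 5 without control mouse 5. Shares of all probes are not given for those fits.

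No member reached an adjusted p of 0.1 in limma in any of the 3 comparisons, and the lowest adjusted p-values were 0.306 for ursolic acid, 0.224 for tomatidine and 0.764 between the compounds. At an unadjusted p under 0.05 there were 6, 4 and 7 of 57 members in the same order, beside 2317, 2344 and 1483 of 25697 probes. The methods' t-test also gave 0 members at the adjusted threshold in each comparison. At an unadjusted p under 0.05 it gave 7, 4 and 3 members, beside 2300, 1941 and 1438 of all probes. Of all probes, 0.00778%, 0.0973% and 0.0117% reached an adjusted p of 0.1 in limma.

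Over the bright members, the median log2 change was 0.002 for ursolic acid and 0.21 for tomatidine, beside -0.0014 and -0.0078 over all bright probes. Tomatidine values were positive for 19 of 25 bright members, against 13 of 25 for ursolic acid. With tomatidine mice 3 and 4 left out, the tomatidine median was -0.02 and 9 of 25 were positive. These mice stand out by the same values, so a lower median without them is no test.

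**Figure D2:**
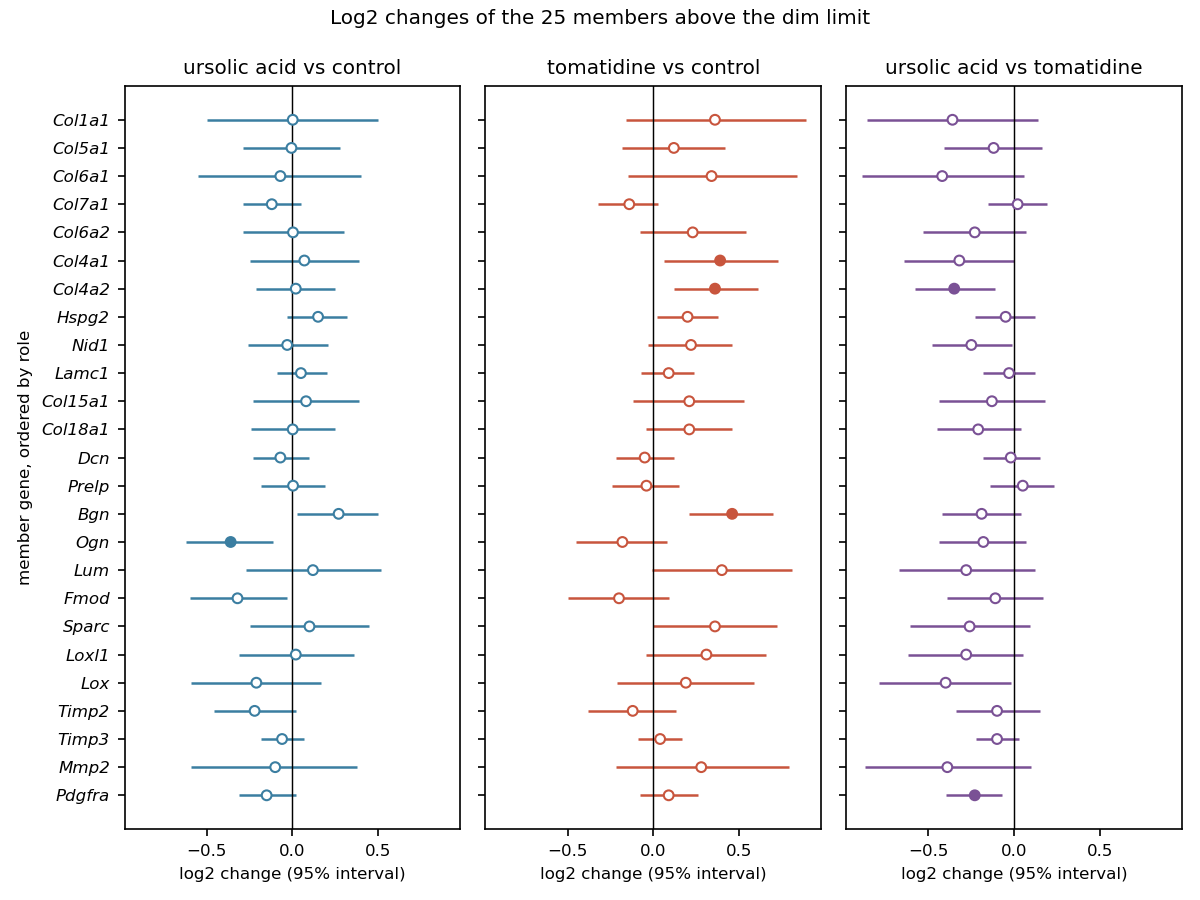
Log2 change with its 95% confidence interval (horizontal axis) for the 25 bright members, ordered by role, in 3 panels for ursolic acid minus control, tomatidine minus control and ursolic acid minus tomatidine. Filled points passed an unadjusted p of 0.025, which were Ogn in the left panel, Bgn, Col4a1 and Col4a2 in the middle panel, and Col4a2 and Pdgfra in the right panel.

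Bgn encodes biglycan, a small leucine-rich proteoglycan that binds type I collagen and is linked to the dystrophin complex of muscle. In ursolic acid mice the log2 signal of Bgn had a lowest value of 10.90, a median of 10.98 and a highest value of 11.18. In tomatidine mice 1 to 5 it was 10.91, 11.03, 11.34, 11.66 and 11.12, against 10.59, 10.81, 10.80, 10.83 and 10.76 in control mice 1 to 5. Every mouse of either compound lay above every control mouse. All signals of one group lay above those of control for 0.498% of all probes with tomatidine and for 0.549% with ursolic acid.

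Bgn rose with tomatidine to a mean of 11.21 ± 0.30 (SD, n = 5), against 10.76 ± 0.10 in control mice (n = 5), a log2 change of 0.46 (95% interval 0.21 to 0.70, 1.37-fold, limma adjusted p = 0.224). This call held in all 28 alternative settings, with changes from 0.26 to 0.53. The lower end is the value without tomatidine mice 3 and 4, and the call stood in the remaining mice (limma adjusted p = 0.515). Some of the 28 settings could hardly alter it. Bgn has no second probe to average, and the array medians are nearly equal before centring. Leaving out an ursolic acid mouse alters only the shared estimate of spread, not the tomatidine change. With ursolic acid Bgn averaged 11.02 ± 0.13 (n = 6), a log2 change of 0.27 (0.03 to 0.50, limma adjusted p = 0.477), which did not pass. The ursolic acid change of Bgn passed in 12 of 28 alternative settings, among them the test of the study's methods, the fit to only the groups compared and the replicate block. That block takes mice of equal number together, though the labels give the numbers no meaning. With tomatidine mice 3 and 4 out of the fit, whose spread enters the shared estimate, the same change of 0.27 had a standard error of 0.06 and passed too (limma adjusted p = 0.221). Ursolic acid minus tomatidine gave -0.19 for Bgn with all mice (-0.42 to 0.04, limma adjusted p = 0.874) and 0.0025 without tomatidine mice 3 and 4 (standard error 0.07). It passed with the replicate block, at -0.22, and without tomatidine mouse 1, at -0.27.

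Ogn encodes osteoglycin, also called mimecan, another small leucine-rich proteoglycan of collagen fibrils. The log2 signal of Ogn in ursolic acid mice had a lowest value of 9.85, a median of 10.30 and a highest value of 10.42, against 10.79, 10.39, 10.47, 10.88 and 10.49 in control mice 1 to 5. The groups overlapped, since control mouse 2 lay below the highest ursolic acid mouse. Ogn fell with ursolic acid to a mean of 10.24 ± 0.21 (n = 6), against 10.60 ± 0.22 in control mice (n = 5), a log2 change of -0.36 (-0.62 to -0.11, 0.777-fold, limma adjusted p = 0.358). The call was lost without control mouse 1 or without control mouse 4, and over all mice left out in turn the change stayed between -0.42 and -0.29. In tomatidine mice 1 to 5 Ogn had 10.36, 10.63, 10.21, 10.66 and 10.25, with a log2 change of -0.18 (-0.45 to 0.08, limma adjusted p = 0.724). Of the other 2 Ogn probes, both dim, neither passed in any comparison. Of 9 listed tenocyte markers, 7 had a negative ursolic acid change, and 7 also had a negative tomatidine change, where Ogn did not pass. Their summed signal on the log2 scale was 11.47 to 11.71 in ursolic acid mice, 11.53 to 11.78 in tomatidine mice and 11.57 to 11.96 in control mice. Control mouse 4, the highest mouse for Ogn, was also the highest of 16 for Scx, Fmod, Comp, Chad, Tnc and Kera. The list holds Fmod, 6 of its genes were dim, Kera fell and Tnmd rose with ursolic acid, and its part in the Ogn value was not tested.

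Because Bgn and Ogn were the bright members with the largest rise and fall against control, the 250 bases before their annotated starts are shown (RefSeq, GRCm38.p6). Capitals mark matches to the GC box (GGGCGG) or the TATA box (TATAAA) on either strand, and the region of Bgn is chrX:73483351-73483600 and that of Ogn is chr13:49607765-49608014, both on the plus strand.
Bgn: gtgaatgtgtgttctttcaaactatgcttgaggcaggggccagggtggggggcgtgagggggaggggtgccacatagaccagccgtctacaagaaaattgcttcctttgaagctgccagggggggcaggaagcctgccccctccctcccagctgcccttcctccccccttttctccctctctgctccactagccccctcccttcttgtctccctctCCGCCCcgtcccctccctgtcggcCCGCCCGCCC
Ogn: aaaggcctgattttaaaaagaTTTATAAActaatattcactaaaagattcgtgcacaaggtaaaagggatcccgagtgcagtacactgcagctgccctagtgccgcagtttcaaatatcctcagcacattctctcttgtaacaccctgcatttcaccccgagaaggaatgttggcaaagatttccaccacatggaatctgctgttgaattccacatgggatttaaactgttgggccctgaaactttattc
The window of Bgn held 3 GC box matches, a pair of which overlap at its end, and had a GC content of 64.4%, while the window of Ogn held 2 overlapping TATA box matches at the end farthest from the start and had a GC content of 42%. The CCAAT box (CCAAT) and the AP-1 site (TGANTCA) were searched on both strands too and had 0 matches in either window. Over 32851 promoter windows of the same length, a GC box was found in 32.7%, a TATA box in 12.4%, a CCAAT box in 33.8% and an AP-1 site in 6.75%. Of the 57 members, 44 had a promoter in the table, in 48 windows, and these held a GC box in 54.2%, a TATA box in 16.7%, a CCAAT box in 37.5% and an AP-1 site in 2.08%.

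**Figure D3:**
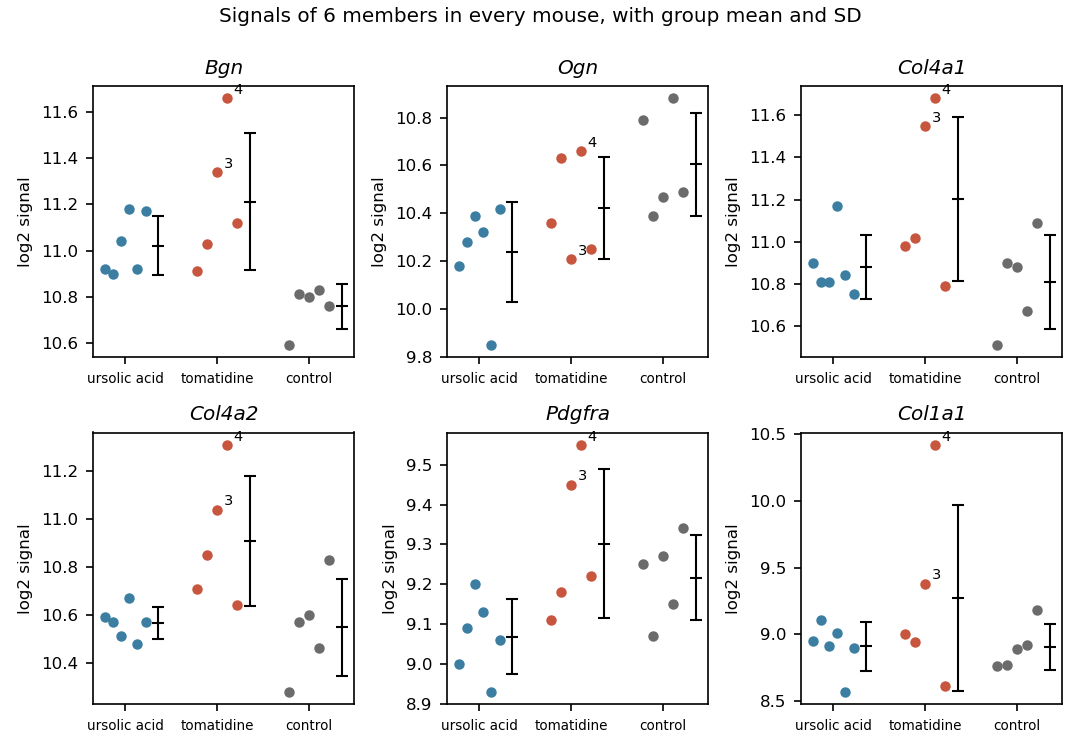
Log2 signal (vertical axis, scaled separately in each panel) of Bgn, Ogn, Col4a1, Col4a2, Pdgfra and Col1a1 in every mouse, with the group mean and SD as a black bar beside the points and tomatidine mice 3 and 4 numbered. The 5 control mice lie below all treated mice for Bgn, and for Col1a1 tomatidine mouse 4 lies far above the rest at 10.42.

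Col4a1 and Col4a2 encode the alpha chains that assemble into the most widespread type IV collagen of basement membranes. The ursolic acid mice had a lowest, median and highest value of 10.75, 10.83 and 11.17 for Col4a1 and of 10.48, 10.57 and 10.67 for Col4a2. The log2 signal of Col4a1 in tomatidine mice 1 to 5 was 10.98, 11.02, 11.55, 11.68 and 10.79, against 10.51, 10.90, 10.88, 10.67 and 11.09 in control mice 1 to 5. Col4a2 had 10.71, 10.85, 11.04, 11.31 and 10.64 in tomatidine mice 1 to 5, against 10.28, 10.57, 10.60, 10.46 and 10.83 in control mice 1 to 5. For both genes tomatidine mice 3 and 4 were the highest of all mice, and the other 3 tomatidine mice lay within or close to the range of control mice.

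Col4a2 rose with tomatidine by 0.36 on the log2 scale (0.12 to 0.61, 1.29-fold, limma adjusted p = 0.329), and Col4a1 rose by 0.39 (0.06 to 0.73, 1.31-fold, limma adjusted p = 0.463). When tomatidine mice 3 and 4 were left out, the changes were 0.19 for Col4a2 (standard error 0.09, limma adjusted p = 0.735) and 0.12 for Col4a1 (standard error 0.12, limma adjusted p = 0.904), and neither passed. The Col4a1 call was also lost when any of 11 of the 16 mice was left out. Under the test of the study's methods, with equal or unequal variances, both calls were lost. With ursolic acid the changes were 0.02 for Col4a2 (-0.21 to 0.25) and 0.07 for Col4a1 (-0.25 to 0.39), and neither passed.

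The 2 genes lie head to head on mouse chromosome 8 (GRCm38.p6), where the RefSeq start of Col4a1 is at 11312826 on the minus strand and that of Col4a2 at 11312805 on the plus strand, 21 bases apart. Their 5′ ends overlap by 22 bases in this annotation, so that each promoter window reaches into the other gene. The deviations of the 2 genes from their group means had r = 0.93 over the 16 mice and r = 0.89 over the 14 mice without tomatidine mice 3 and 4.

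Of the other bright basement membrane members, none passed against control. Hspg2 encodes perlecan, the large heparan sulphate proteoglycan of basement membranes, and had 11.03, 11.05, 11.19, 11.22 and 10.75 in tomatidine mice 1 to 5, against 10.70, 10.81, 10.89, 10.82 and 11.04 in control mice 1 to 5. Its log2 change was 0.20 with tomatidine (0.02 to 0.38, limma adjusted p = 0.503) and 0.15 with ursolic acid (-0.03 to 0.32, limma adjusted p = 0.639). Nid1, which links laminin to type IV collagen, and Lamc1, the laminin gamma 1 chain, were chosen for mention after their values were seen and had tomatidine changes of 0.22 and 0.09, and of 0.05 and -0.02 without tomatidine mice 3 and 4. Their 95% intervals, from -0.03 to 0.46 and from -0.07 to 0.24, held 0. Lamb1, the laminin beta 1 chain, was dim. Of 8 members with network-forming collagen chains, 6 were dim.

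The fibrillar collagens had few bright probes, 2 of 11. Col1a1 encodes the alpha 1 chain of type I collagen. In ursolic acid mice its log2 signal had a lowest value of 8.57, a median of 8.93 and a highest value of 9.11. Col1a1 had 9.0, 8.94, 9.38, 10.42 and 8.61 in tomatidine mice 1 to 5, against 8.76, 8.77, 8.89, 8.92 and 9.18 in control mice 1 to 5. Its spread between mice of a group, with a residual SD of 0.41 on the log2 scale, was the widest of all members, and its log2 change was 0.36 with tomatidine (-0.16 to 0.89, limma adjusted p = 0.72) and 0.0022 with ursolic acid (-0.50 to 0.50). In the absence of tomatidine mice 3 and 4 the tomatidine change was -0.06.

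Col3a1 encodes the chain of type III collagen, and its 2 probes were dim, with means of 8.07 and 8.02. Its brighter probe averaged 8.02 ± 0.02 in ursolic acid mice (n = 6), 8.13 ± 0.12 in tomatidine mice (n = 5) and 8.08 ± 0.02 in control mice (n = 5). Ursolic acid minus tomatidine was -0.10 (-0.19 to -0.02, limma adjusted p = 0.814), a call that was lost without tomatidine mouse 3 or 4 and under the test of the study's methods. Its ursolic acid change of -0.05 against control passed under that test and without tomatidine mice 3 and 4. The probe of Col1a2, the partner chain of Col1a1, was dim at a mean of 8.06. Whether the probes of Col1a2 and Col3a1 report their transcripts was not tested, and their dim signals are no measure of low mRNA levels of these abundant collagens. Col27a1 passed between the compounds with a log2 difference of only -0.02, at means of 7.97 in ursolic acid mice and 7.99 in tomatidine mice, close to the lowest signals of the arrays.

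Type VI collagen forms beaded filaments next to the basement membrane of muscle fibres. Col6a1 had a lowest, median and highest value of 9.97, 10.52 and 10.65 in ursolic acid mice. It had 10.56, 10.56, 11.14, 11.81 and 10.17 in tomatidine mice 1 to 5, against 10.55, 10.31, 10.42, 10.53 and 10.71 in control mice 1 to 5. Tomatidine mice 3 and 4 lay above all other mice, and tomatidine mouse 5 lay below every control mouse. Its log2 change was 0.34 with tomatidine (-0.15 to 0.84, limma adjusted p = 0.721) and -0.07 with ursolic acid (-0.55 to 0.40), and the tomatidine change turned to -0.07 without tomatidine mice 3 and 4 (standard error 0.14). A second bright probe of Col6a1 had the same high mice, with 9.85 and 10.32 in tomatidine mice 3 and 4, and a tomatidine change of 0.26.

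Of the transmembrane and endostatin collagens, Col17a1, a chain of epithelial hemidesmosomes, was the member that rose with ursolic acid. It averaged 8.02 ± 0.02 in ursolic acid mice (n = 6), 8.0 ± 0.02 in tomatidine mice (n = 5) and 7.98 ± 0.02 in control mice (n = 5), and the change of 0.04 (0.02 to 0.07, limma adjusted p = 0.306) was smaller than the change of any bright member that passed. All ursolic acid mice lay above all control mice for this probe, but its other 2 probes gave 0.0076 and -0.0035, and the mean of all 3 did not pass. The brightest of the fibril-surface collagens by mean signal, Col16a1, was dim, with changes of -0.02 with ursolic acid and 0.02 with tomatidine. The tomatidine change of Col16a1 was -0.07 without tomatidine mice 3 and 4 and passed in that direction (limma adjusted p = 0.65).

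Dcn, the decorin gene, had 12.82 to 13.07 in ursolic acid mice, 12.80 to 13.06 in tomatidine mice and 12.78 to 13.25 in control mice. Its changes against control were -0.07 (-0.23 to 0.10) and -0.05 (-0.22 to 0.12). A second bright Dcn probe ran from 10.42 to 10.92, 10.40 to 11.01 and 10.72 to 10.95 in the same groups. It was highest in tomatidine mouse 4, with changes of -0.13 (-0.34 to 0.08) and -0.04 (-0.26 to 0.18), and neither passed. Prelp, a leucine-rich proteoglycan that ties basement membranes to the matrix, gave 0.0041 with ursolic acid (-0.18 to 0.19) and -0.04 with tomatidine (-0.24 to 0.15). Lum, the lumican gene, had 9.83, 10.04, 10.35, 10.87 and 9.75 in tomatidine mice 1 to 5, against 9.50, 9.78, 9.88, 9.56 and 10.14 in control mice 1 to 5, and a tomatidine change of 0.40 (-0.01 to 0.81, limma adjusted p = 0.563), which was 0.10 without tomatidine mice 3 and 4. Fmod, the fibromodulin gene, named after its values were seen, had changes of the same sign as Ogn, -0.32 for ursolic acid (-0.60 to -0.03, limma adjusted p = 0.486) and -0.20 for tomatidine (-0.50 to 0.09), and the ursolic acid change passed without tomatidine mice 3 and 4, at the same -0.32. Of the 7 proteoglycans, 6 of them bright, 1 fell with ursolic acid and 1 rose with tomatidine. Each is 14.3% of the 7, beside 12.2% and 13% of bright probes and 5.3% and 5.37% of all probes.

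Sparc encodes a collagen-binding glycoprotein needed for fibril assembly. Its log2 signal was 11.17, 11.15, 11.60, 12.09 and 10.83 in tomatidine mice 1 to 5, against 10.88, 11.03, 11.04, 10.96 and 11.13 in control mice 1 to 5. The change with tomatidine was 0.36 (-0.0011 to 0.72, limma adjusted p = 0.55), and it was 0.04 without tomatidine mice 3 and 4. With ursolic acid it was 0.10 (-0.25 to 0.45). A second Sparc probe had a tomatidine change of 0.28 and was again highest in tomatidine mouse 4, at 10.42.

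The lysyl oxidase genes Lox and Loxl1 crosslink collagen and elastin. Lox had 8.89, 8.94, 9.40, 9.97 and 8.98 in tomatidine mice 1 to 5, against 9.05, 8.84, 8.77, 9.01 and 9.55 in control mice 1 to 5. Loxl1 had 9.75, 9.76, 10.46, 10.74 and 9.80 in tomatidine mice 1 to 5, against 9.70, 9.72, 9.78, 9.81 and 9.95 in control mice 1 to 5. Neither passed in any comparison, and the tomatidine changes were 0.19 for Lox (-0.21 to 0.59) and 0.31 for Loxl1 (-0.04 to 0.66). Both turned without tomatidine mice 3 and 4, to -0.11 (standard error 0.14) and -0.02 (standard error 0.07).

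Among turnover genes, Mmp2, the gelatinase that cleaves denatured collagen and type IV collagen, had 10.62, 10.60, 11.05 and 10.33 in tomatidine mice 1, 2, 3 and 5 and 12 in tomatidine mouse 4, against 10.53, 10.59, 10.48, 10.65 and 10.95 in control mice 1 to 5. Its change was 0.28 with tomatidine (-0.22 to 0.79) and -0.10 with ursolic acid (-0.59 to 0.38), and the tomatidine change turned to -0.12 without tomatidine mice 3 and 4 (standard error 0.13). Timp1, an inhibitor of metalloproteinases, was dim by its mean and had a tomatidine change of 0.47 (-0.04 to 0.98, limma adjusted p = 0.58), which was -0.01 without tomatidine mice 3 and 4. Its second probe reached 9.58 and 9.25 in tomatidine mice 3 and 4, against 8.11 to 8.57 in control mice. Timp2 and Timp3, further inhibitors of the family, had ursolic acid changes of -0.22 (-0.46 to 0.02) and -0.06 (-0.18 to 0.07).

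**Figure D4:**
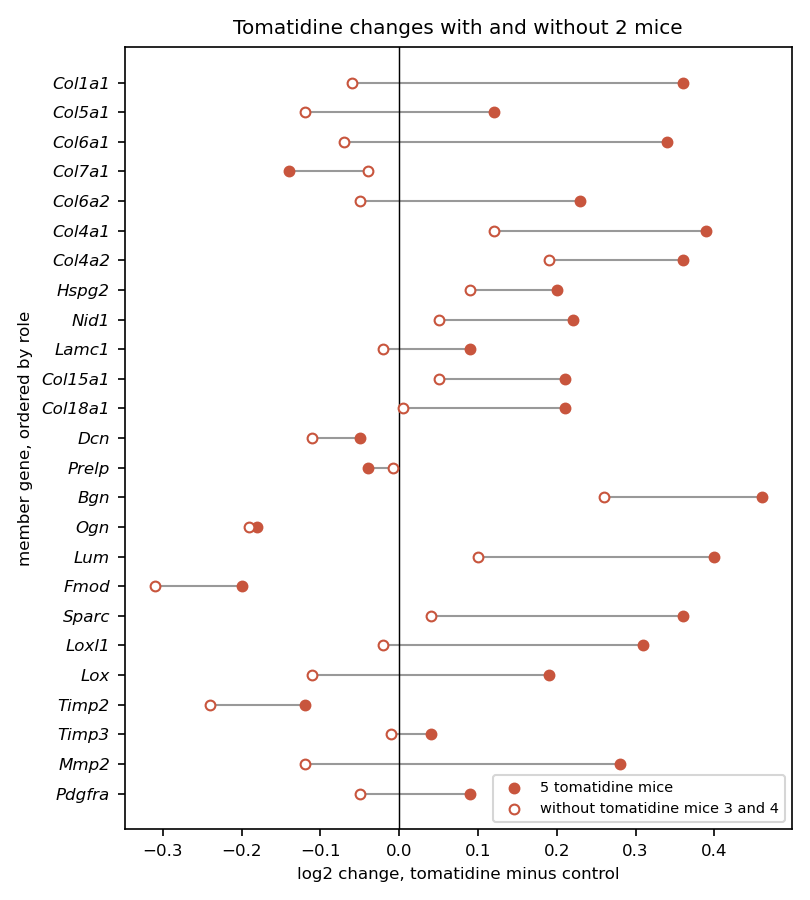
Log2 change of tomatidine minus control (horizontal axis) for the 25 bright members, ordered by role, with all 5 tomatidine mice (filled points) and without tomatidine mice 3 and 4 (open points). The positive values fall in number to 9 of 25 from 19 of 25, and Bgn stays positive at 0.26.

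Pdgfra encodes the platelet-derived growth factor receptor alpha, the surface marker of the fibro-adipogenic cells of muscle. Its log2 signal in ursolic acid mice had a lowest value of 8.93, a median of 9.07 and a highest value of 9.20, against 9.11, 9.18, 9.45, 9.55 and 9.22 in tomatidine mice 1 to 5, and control mice 1 to 5 had 9.25, 9.07, 9.27, 9.15 and 9.34. The groups overlapped. Ursolic acid minus tomatidine was -0.23 (-0.40 to -0.07, limma adjusted p = 0.78), and -0.10 without tomatidine mice 3 and 4 (standard error 0.06), when it no longer passed. The call was also lost without tomatidine mouse 3 alone, without tomatidine mouse 4 alone and under the test of the study's methods, with equal or unequal variances. Against control Pdgfra gave -0.15 with ursolic acid (-0.31 to 0.02, limma adjusted p = 0.611) and 0.09 with tomatidine (-0.08 to 0.26). The ursolic acid change was -0.15 also without tomatidine mice 3 and 4 and passed there (limma adjusted p = 0.4).

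Between the compounds Col4a2 was 0.35 lower on the log2 scale with ursolic acid (10.57 ± 0.07, n = 6) than with tomatidine (10.91 ± 0.27, n = 5), written as a change of -0.35 (-0.58 to -0.11, limma adjusted p = 0.764). It was -0.17 without tomatidine mice 3 and 4 and no longer passed (limma adjusted p = 0.998), nor did it pass in the methods' test with unequal variances. Among bright members 23 of 25 were lower with ursolic acid than with tomatidine, with a median of -0.21, beside 0.0073 over all bright probes. Without tomatidine mice 3 and 4, 15 of 25 were positive and the median was 0.01, beside 0.0025 over all bright probes. The members varied together from mouse to mouse, so 23 of 25 is no count of separate observations.

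Matrix genes varied together from mouse to mouse within a diet group. Deviations from the group mean were correlated with those of Col1a1 for 8 chosen partners over 16 mice, with 2-sided permutation tests within groups (100000 resamples) and Benjamini-Hochberg adjustment over the 8. Pearson's r was 0.96 for Col6a1 (permutation p = 8e-05, adjusted p = 6.4e-04, Spearman's rho 0.94 with adjusted permutation p = 0.00144) and 0.94 for Sparc (permutation p = 1.7e-04, adjusted p = 6.8e-04, rho 0.85 with adjusted permutation p = 0.00432). It was 0.78 for Col4a1 (permutation p = 0.00163, adjusted p = 0.00435, rho 0.71 with adjusted permutation p = 0.0322) and 0.76 for Pdgfra (permutation p = 0.00386, adjusted p = 0.00772, rho 0.74 with adjusted permutation p = 0.0218). The dim probes of Col3a1 and Col1a2 gave 0.87 (permutation p = 0.00964, adjusted p = 0.0154, rho 0.70 with adjusted permutation p = 0.0345) and 0.75 (permutation p = 0.0221, adjusted p = 0.0295, rho 0.50 with adjusted permutation p = 0.155). Dcn and Ogn, with r = 0.38 each, did not pass (permutation p = 0.144 and 0.177, adjusted p = 0.165 and 0.177, rho 0.38 and 0.24 with adjusted permutation p = 0.211 and 0.411).

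These relations leaned on few mice to different degrees. The mice farthest from the median of Col1a1 were tomatidine mouse 4, at 1.15 above its group mean, and tomatidine mouse 5, at -0.66. Without both, r was 0.91 for Col6a1, 0.77 for Sparc and 0.73 for Pdgfra, which still passed, and 0.63 for Col4a1, 0.57 for Col3a1 and 0.29 for Col1a2, which rest on those mice by the adjusted p. Without tomatidine mice 3 and 4, r was 0.90 for Col6a1 and 0.75 for Sparc, which passed, and 0.52 for Col4a1, 0.43 for Pdgfra, 0.26 for Col3a1 and 0.16 for Col1a2, which did not.

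**Figure D5:**
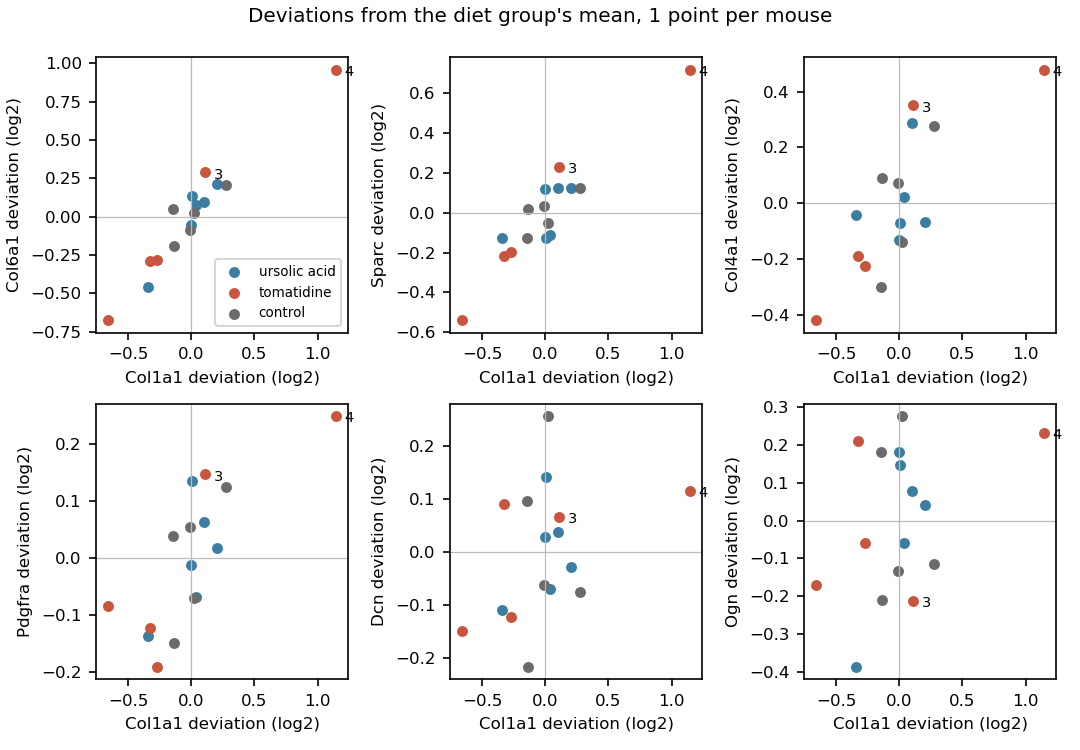
Deviation from the diet group's mean of Col6a1, Sparc, Col4a1, Pdgfra, Dcn and Ogn (vertical axes, log2) against that of Col1a1 (horizontal axes, log2), 1 point per mouse coloured by diet, with tomatidine mice 3 and 4 numbered. Col6a1 follows Col1a1 closely (r = 0.96), also near the origin, while Dcn and Ogn (r = 0.38 each) do not.

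Over all 300 pairs of the 25 bright members the median r of the deviations was 0.69, with 144 pairs above 0.7, and 0.42 with 59 pairs above 0.7 without tomatidine mice 3 and 4. The members most like Col1a1 were Mmp2 (r = 0.99 with all 16 mice and 0.92 without these mice), Col6a2 (0.97 and 0.88), Col6a1 (0.96 and 0.90) and Col5a1 (0.96 and 0.81). Without these mice Mmp2 and Col6a1 led, and Col5a1 came after Col15a1, Nid1 and Col18a1 (0.88, 0.85 and 0.82). Dcn was most like Ogn, with 0.79 over all mice and 0.88 without these mice, and r between Dcn and Prelp was 0.61 and 0.74. Bgn had r = 0.75 with Col1a1 over all mice and 0.00 without tomatidine mice 3 and 4. These r values describe deviations that share their arrays and carry no test.

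Other genes of matrix biology were taken from 7 lists, which hold 157 genes outside the members, and 136 of these were measured. With ursolic acid 1 rose and 4 fell, with tomatidine 4 rose and 5 fell, and between the compounds 2 were higher and 2 lower, which is 3.68%, 6.62% and 2.94% beside the 5.3%, 5.37% and 2.94% of all probes. Of 16 measured genes of collagen synthesis and processing, Plod3, a lysyl hydroxylase that also adds glucose to collagen, rose with tomatidine by 0.22 (9.63 ± 0.18 against 9.41 ± 0.07 in control mice, n = 5 each, limma), and Colgalt1, a collagen galactosyltransferase, fell by 0.16. Of 18 elastic fibre and crosslinking genes, Fbln2, the fibulin-2 gene, rose with tomatidine by 0.28. It had 9.73, 9.76, 9.85, 10.20 and 9.85 in tomatidine mice 1 to 5, against 9.57, 9.60 and 9.59 in control mice 1 to 3 and at most 9.64 in all control mice. All tomatidine signals lay above control for 0.498% of all probes. With ursolic acid the changes were 0.18 for Fbln2 (0.02 to 0.33), 0.09 for Plod3 (-0.05 to 0.23) and -0.10 for Colgalt1 (-0.20 to -0.01), and none passed. Of 9 further basement membrane genes, Agrn, the agrin gene, rose with ursolic acid by 0.16 and Tinagl1 with tomatidine by 0.15, while Lamc3, dim, fell by 0.05 with either compound.

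Among 24 measured matrix receptors of the fibre, Sgca, the alpha-sarcoglycan gene of the dystrophin complex, fell with both compounds. It averaged 11.90 ± 0.13 in ursolic acid mice (n = 6) and 11.86 ± 0.13 in tomatidine mice (n = 5), against 12.13 ± 0.10 in control mice (n = 5), with changes of -0.23 and -0.27. Dag1, the dystroglycan gene, rose with tomatidine by 0.19, and Ddr1, a collagen receptor, was 0.13 higher with ursolic acid than with tomatidine, as was Adamts3, a procollagen peptidase with a dim probe, by 0.03. Of 20 TGF-beta and profibrotic signalling genes, Skil, a repressor of SMAD signalling, fell by 0.20 with tomatidine, and 0 others passed in any comparison. Of 29 other proteoglycans and glycoproteins, Tnxb, the tenascin-X gene, was lower with ursolic acid than with tomatidine by 0.24 (9.32 ± 0.13, n = 6, against 9.56 ± 0.19, n = 5) and Kera, dim, fell with ursolic acid by 0.05. Of 21 proteases and inhibitors, the dim probes of Mmp23 and Adamts8 fell by 0.04 each, Mmp23 with ursolic acid and Adamts8 with tomatidine, and Mmp23 was also lower with ursolic acid than with tomatidine, by 0.06. Without tomatidine mice 3 and 4, 2 of 136 list genes rose and 2 fell with ursolic acid, and 2 rose and 5 fell with tomatidine. All probes passed there at 5.57% and 3.83%. None of these genes had an adjusted p of 0.1 or less in limma with all mice. At an unadjusted p under 0.05 there were 10, 12 and 8 of 136 in the 3 comparisons, beside 2317, 2344 and 1483 of 25697 probes.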

How the data were processed

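The arrays were 1-colour Mouse Ref-8 version 2.0 BeadChips, 1 per mouse, hybridized for the authors at a genotyping service with column-purified muscle RNA. An iScan instrument read the arrays, and BeadStudio gave the signals. The deposited values are log2 signals on 1 scale for all arrays. For BeadStudio's version, background correction and normalization, the settings were not given in the sources used here. The arrays correlated at r of 0.99 to 0.998 over all probes, and none held identical values. The number of arrays limits the precision.

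The log2 values were used as deposited, with no filter. Every column matched 1 mouse by its label. Gene symbols came from GEO's annotation of the platform. A linear model with moderated variances (limma 3.58.1, R 4.3.3) was fitted to all 25697 probes with 1 mean per diet over 16 arrays and 13 residual degrees of freedom, and p-values were adjusted over all probes. Changes are compound minus control, or ursolic acid minus tomatidine. The thresholds were those of the methods, an unadjusted p of 0.025 and an adjusted p of 0.1. Correlations used NumPy 2.4.6. The fit was tested on simulated data.

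Members and lists were chosen with earlier results of these data known. The setting without tomatidine mice 3 and 4 leaves out the highest mice of these members, so it describes their weight and tests nothing. The genes named were the members at an unadjusted p of 0.025 in any comparison, the 12 with the highest mean, the 8 with the largest residual SD, the member with the highest mean in each role without another, and list genes at that threshold, at most 4 per list and comparison. Nid1, Lamc1, Fmod, Col6a2, Col5a1, Col15a1, Col18a1, Col1a2, Col11a2, Lamb1 and the cell type markers fell outside this rule and were named after their values were seen. Alternatives were the methods' t-test, with equal or unequal variances, only the groups compared, intensity trend with robust estimates, array weights, centring, repeated quantile normalization, the lowest signal subtracted with an offset of 50, no dim probes, the mean of all probes of a gene, no tomatidine mice 3 and 4, the mouse number as a block, and each mouse left out.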

Additional observations from a re-analysis of the deposited data

Results flagged for a closer look

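Among the members named by the rule, 66 groups of mice were screened for a mouse far from the others (Dixon's test), and 4 were marked, where chance marks about 1 in 20 groups. Ursolic acid mouse 4 had the highest Hspg2 signal of its group, 11.21, with the nearest mouse at 10.99. The same mouse had the highest Col4a1 signal of its group, 11.17, with the nearest at 10.90. Ursolic acid mouse 5 had the lowest Mmp2 signal of its group, 10.14, with the nearest at 10.49. Control mouse 5 had the highest Timp1 signal of its group, 8.63, with the nearest at 8.16. None of the marked groups was a tomatidine group, but the test sets the extreme mouse against its nearest mouse. Where both are high, tomatidine mouse 3 can keep tomatidine mouse 4 from being marked.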

How the results depend on the processing

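Members passing for ursolic acid against control, 2 as reported, numbered 4 with the methods' t-test, 4 with unequal variances, 5 with only the groups compared, 4 with the lowest signal subtracted, 6 without tomatidine mice 3 and 4 and 4 with the replicate block, which used mice 1 to 5 of each group. For tomatidine against control the 3 became 1 with the methods' t-test and 1 with unequal variances. For ursolic acid against tomatidine the 4 became 2 with the methods' t-test, 1 with unequal variances and 2 with only the groups compared. They became 2 without dim probes and 1 without tomatidine mice 3 and 4. Of all probes, 5.02%, 4.01% and 2.83% passed the methods' t-test for ursolic acid, tomatidine and between the compounds. Without tomatidine mice 3 and 4 these shares were 5.57%, 3.83% and 2.37%. For the other settings the share of all probes is not given, so those shifts may not be particular to the members. The median change of all members with tomatidine, 0.02, was 0.05 with the lowest signal subtracted, 0.21 without dim probes and -0.0078 without tomatidine mice 3 and 4, and that of bright members, 0.21, was -0.02 without these mice. Between the compounds the median of -0.02 was -0.21 without dim probes and 0.0029 without these mice, and that of bright members, -0.21, was 0.01. Without these mice r with Col1a1 was 0.16 for Col1a2, 0.26 for Col3a1, 0.52 for Col4a1 and 0.43 for Pdgfra, and without the 2 mice farthest from the median it was 0.29, 0.57 and 0.63 for Col1a2, Col3a1 and Col4a1.

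With each mouse left out, 1 to 4 members passed for ursolic acid, 2 to 8 for tomatidine and 1 to 10 between the compounds. The shares of all probes in these fits are not given, so the shifts may not be particular to the members. The highest counts for tomatidine and between the compounds came without tomatidine mouse 5, the lowest between the compounds without tomatidine mouse 3 or 4, and the lowest for ursolic acid without control mouse 1 or 4. The all-member median between the compounds ranged from -0.05 to -0.01. The range of r was 0.52 to 0.81 for Col1a2, 0.63 to 0.90 for Col3a1 and 0.64 to 0.80 for Pdgfra. Bgn reached an adjusted p of 0.1 for tomatidine under 3 settings, 0.0666 without dim probes, 0.0888 with the replicate block and 0.0684 without tomatidine mouse 1, and stayed above it under all others. Mice of equal number had r over 0.1 in 4 of 5 pairs of ursolic acid with tomatidine and in 0 of 5 pairs of either compound with control, and the labels give the numbers no meaning, so they were not taken as pairs. With the replicate block Bgn also passed for ursolic acid against control and for ursolic acid against tomatidine, the Col4a1 and Col27a1 calls were lost, and the other 7 calls of named members stood. Dim probes limit 32 of 57 members, whose changes may be understated. The causes of these shifts were not tested.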
